A study of Homo sapiens with 24 samples.

Results

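This report describes the translational efficiency (TE) of nuclear-encoded genes in PANC-1 cells treated with cercosporamide. Of 54583 genes in the count table, 12154 nuclear genes had reads in all 16 libraries of the comparison and were tested. Another 42 genes that also had reads in all 16 libraries (mRNAs, tRNAs and rRNAs of the mitochondrial genome and their nuclear copies) took part in the fit and are left out here. PANC-1 is an established human line of pancreatic duct carcinoma cells. It was the only line used, and the labels name no genetic change in any group. Plates were treated for 6 h with 5 µM cercosporamide, a small molecule used in the study as an inhibitor of MNK2, or with DMSO, its solvent. Each treatment had 4 biological replicates according to the methods, and each plate gave 1 library of total cytosolic RNA and 1 of polysome-associated RNA (mRNA carrying more than 3 ribosomes), made by the Smart-seq2 protocol. The comparison asked for which mRNAs the polysome level changed differently from the total level, that is (polysome minus total with cercosporamide) minus (polysome minus total with DMSO) on a log2 scale, within replicates.

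The replicate 4 polysome library with cercosporamide held 1592459 reads on genes, and the other 15 libraries held 9268041 to 12064739. Mitochondrial genes held 9.07 to 12.4% of the reads in total RNA, 3.55 to 5.98% in polysome-associated RNA with DMSO and 0.922 to 1.98% in polysome-associated RNA with cercosporamide. In the 8 total RNA libraries the keratins KRT8, KRT18 and KRT19, which mark duct epithelium, lay between 1016 and 5799 CPM (counts scaled to library size), and VIM, the mesenchymal filament protein, between 720 and 1194 CPM. Of the other mesenchymal markers SPARC lay between 45.7 and 143 CPM and CDH2 and ZEB1 between 4.32 and 10.9 CPM, whereas SNAI2 reached at most 0.853 CPM and FN1 had no read in 6 of the 8 libraries. The epithelial markers EPCAM, KRT7 and SOX9 were between 4.75 and 31.8 CPM, whereas CDH1 had no read in 7 of the 8 libraries. Of the 11 acinar and endocrine markers, 9 had no read in any of them, and of the immune markers CD68, which also marks lysosomes, lay between 412 and 680 CPM. Every level is relative to the reads of its own library, so a change in the amount of polysome-associated RNA per cell cannot be told apart from a change in the number of cells harvested, and neither is measured here.

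In most mRNAs translation begins when the cap-binding protein eIF4E, bound to the scaffold eIF4G and the helicase eIF4A, brings the small ribosomal subunit to the capped end. MNK1 and MNK2 are kinases that dock on eIF4G and phosphorylate eIF4E. How many ribosomes an mRNA carries also depends on its length and on its first bases: mRNAs for ribosomal proteins start with a run of pyrimidines, the terminal oligopyrimidine (TOP) tract, by which cells set the output of the translation machinery as a group.

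TE rose for 1756 of the 12154 genes (14.4%) and fell for 1312 (10.8%), where a call needed more than a 1.2-fold change and a Benjamini-Hochberg adjusted p under 0.15 in the quasi-likelihood test of edgeR. Of the genes whose TE rose, 1391 (11.4% of all tested) changed at least as much in polysome-associated as in total RNA and are called hypertranslated. Of those whose TE fell, 887 (7.3%) did so and are called hypotranslated. The other calls are termed buffered here, which means only that total RNA changed more than polysome-associated RNA. This is wider than the study's term, which asks for no change in polysome association. Of these genes 425 (3.5%) had the larger change upward in total RNA, and 365 (3%) had it downward. Of the hypertranslated genes 1122 had a total RNA change below 0, and of the hypotranslated genes 817 had one above 0. By itself, the change in total RNA passed an adjusted p of 0.15 for 4 genes upward (0.0329%) and 1 downward (0.00823%), whereas polysome-associated RNA passed for 1632 upward (13.4%) and 1047 downward (8.61%). Thus 1 of the 425 genes buffered with total RNA up and none of the 365 buffered with total RNA down had a total RNA change that itself passed (edgeR), although 341 and 218 of them had an unadjusted p below 0.05, and the word buffered rests on the size of the 2 changes. With 1 replicate left out, the 3068 TE calls became 1612 without replicate 1, 1729 without replicate 2, 3425 without replicate 3 and 2575 without replicate 4. Without replicate 3 the calls down rose to 1377 hypotranslated and 555 buffered with total RNA up among 12282 genes. Calls in total RNA upward rose to 534 without replicate 2 and to 65 without replicate 3, whereas calls in polysome-associated RNA fell to 784 upward without replicate 3 and to 401 and 649 downward without replicates 2 and 1.

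**Figure D1:**
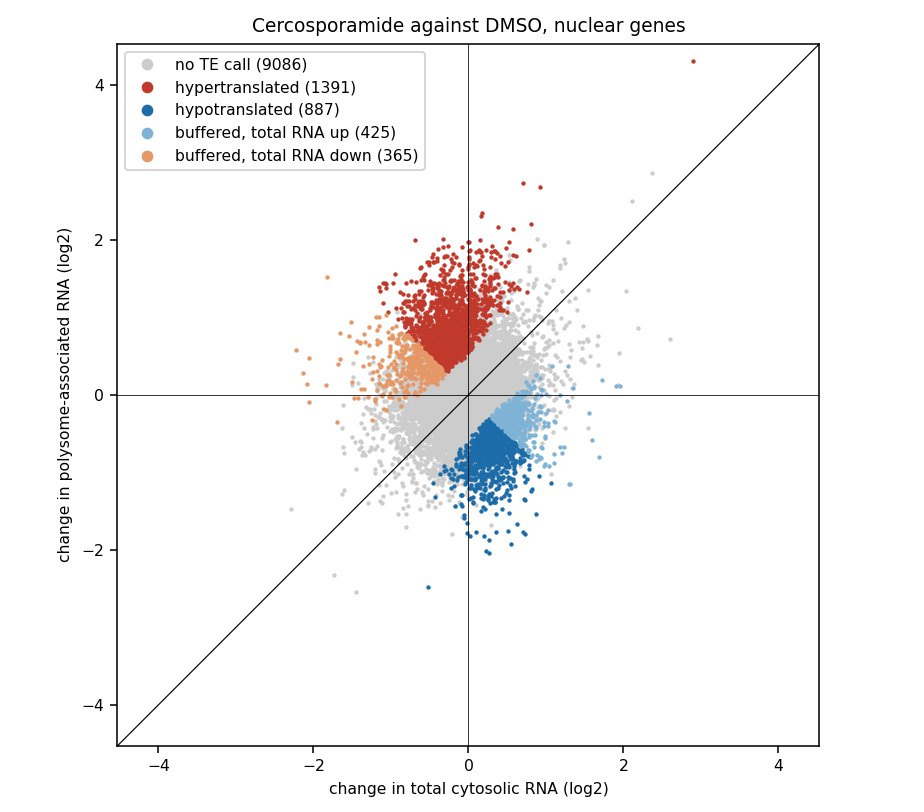
Change in polysome-associated RNA (y axis, log2, cercosporamide against DMSO) against the change in total cytosolic RNA (x axis, log2) for each of the 12154 nuclear genes, coloured by call; the diagonal marks equal changes. The 1391 hypertranslated and 887 hypotranslated genes lie nearer the vertical axis and the 425 and 365 buffered genes nearer the horizontal axis, as their definition sets.

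The largest rises in TE among genes whose mean log2 CPM was 3 or more, with the same sign in 4 of 4 replicates, were those of MTM1 (2.52, with 4.96 in replicate 2 and 1.68 to 1.88 in the others), CCDC138 (2.28), CCNE2 (2.26), KLHL4 (2.24), RECQL (2.20) and HMMR (2.18), all on the log2 scale. MTM1 encodes the phosphoinositide phosphatase myotubularin, CCNE2 encodes cyclin E2, which drives entry into S phase, RECQL encodes a DNA helicase and HMMR a hyaluronan receptor that also binds the mitotic spindle. RECQL (chromosome 12, 21468910 to 21501669, GRCh38, minus strand) had 26.1, 13.8, 15.7 and 22.5 CPM in polysome-associated RNA of the 4 DMSO replicates and 71.5, 45, 82.5 and 101 CPM with cercosporamide. In total RNA it had 18.8, 22.8, 25.1 and 20.1 CPM with DMSO and 14.2, 12.9, 24.1 and 23.1 CPM with cercosporamide. The groups were separate in polysome-associated RNA and overlapped in total RNA, and the TE change was 2.20 with a standard error of 0.287 (adjusted p = 0.000133, edgeR). None of these 6 genes lost its call under any alternative that was run. The hypotranslated genes with the largest changes under the same limits were MT2P1, a metallothionein pseudogene (-2.12), MIR12136, a microRNA gene (-2.06, and -6.93 in replicate 4), SNAR-A1, one of a family of near-identical small non-coding RNAs (-1.90), PAM16 (-1.84), SMIM11A (-1.84) and RPS28P9, a ribosomal protein pseudogene (-1.81). Reads of the pseudogenes, of SNAR-A1 and of SMIM11A can come from near-identical copies, and PAM16, a subunit of the mitochondrial import motor, overlaps a read-through gene, so these values are uncertain. MIR12136 had no matched position in the transcript annotation. Whether its reads come from another gene or a copy, mitochondrial sequence included, was not tested. The replicate 4 value of MIR12136 rests on 0.652 CPM in polysome-associated RNA with cercosporamide, in the library with the fewest reads, against 9.29 to 13.4 CPM in the other treated replicates.

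Cytosolic ribosomal proteins, the protein part of the ribosome, were mostly called down. All 79 listed genes were tested, 24 were hypotranslated and 25 were buffered with total RNA up, none rose, and 76 had a TE change below 0. The calls are 62% of the list, beside 10.8% of all nuclear genes. The median TE change was -0.70, against 0.00 over all nuclear genes, and was -1.14, -0.52, -0.74 and -0.58 in replicates 1 to 4 (SD 0.279). The median change was 0.40 in total RNA and -0.23 in polysome-associated RNA. Without replicate 1 the calls fell to 29, and without replicates 2, 3 and 4 they were 42, 47 and 54.

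The first bases of the mRNAs are shown for some ribosomal protein genes with large falls in TE, since many mRNAs of this class carry the TOP tract. These genes were taken from those with a promoter entry, and genes of a single chromosome were left out. The 20 bases from the annotated start (RefSeq, GRCh38.p14) are printed 5′ to 3′, in capitals where a C at the start is followed by at least 4 pyrimidines (C or T).
RPLP1 (chr15:69452818-69452837, plus strand): CCCCTTTCCTCagctgccgc
RPL17 (chr18:49492446-49492465, minus strand): agcctgaggtgagtgtttct
RPS27 (chr1:153990762-153990781, plus strand): CCTTTCCggcggtgacgacc
RPS12 (chr6:132814569-132814588, plus strand): CTCTTTCCCTgccgccgccg

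RPLP1, RPS27 and RPS12 start with runs of 11, 7 and 10 pyrimidines, whereas the annotated start of RPL17 does not. The RPL17 start shown, at 49492465 on the minus strand, lies inside the gene's boundary of 49492508 in GENCODE. Such a start, read on the transcribed strand, was found in 43 of the 63 ribosomal protein genes with a promoter entry (68.3%) and in 472 of 8631 tested genes with one (5.47%). It was found in 5.35% of the hypertranslated, 9.21% of the hypotranslated and 10.4% of the genes buffered with total RNA up. Among ribosomal protein genes the median TE change was -0.83 with the start and -0.64 without it, where 11 of 20 were also called down. A single annotated start was read per gene, so a tract at another start is missed. Whether these 20 mRNAs lack the tract was not tested. Outside this class, the 429 genes with the start had a median TE change of 0.01 and 12.8% were called down and 15.9% up, beside 9.71% and 16.1% of the genes without it.

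RPLP1, a protein of the ribosomal stalk, had 383, 629, 446 and 400 CPM in polysome-associated RNA with DMSO and 132, 253, 205 and 130 CPM with cercosporamide, and these groups did not overlap. In total RNA it had 1013, 1179, 1181 and 838 CPM with DMSO and 974, 1465, 1750 and 1035 CPM with cercosporamide, and these did. Its TE changed by -1.68 (standard error 0.253, adjusted p = 0.000333, edgeR). RPL17 of the large subunit (-1.51, adjusted p = 0.00304, edgeR), which overlaps a read-through gene, and RPS27 (-1.46, adjusted p = 0.0012) and RPS12 (-1.45, adjusted p = 0.00108) of the small subunit were hypotranslated as well. RPL39 was buffered, with a total RNA change of 0.94 and a polysome change of -0.15, and its TE call (-1.09) was lost after removal of the length trends.

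**Figure D2:**
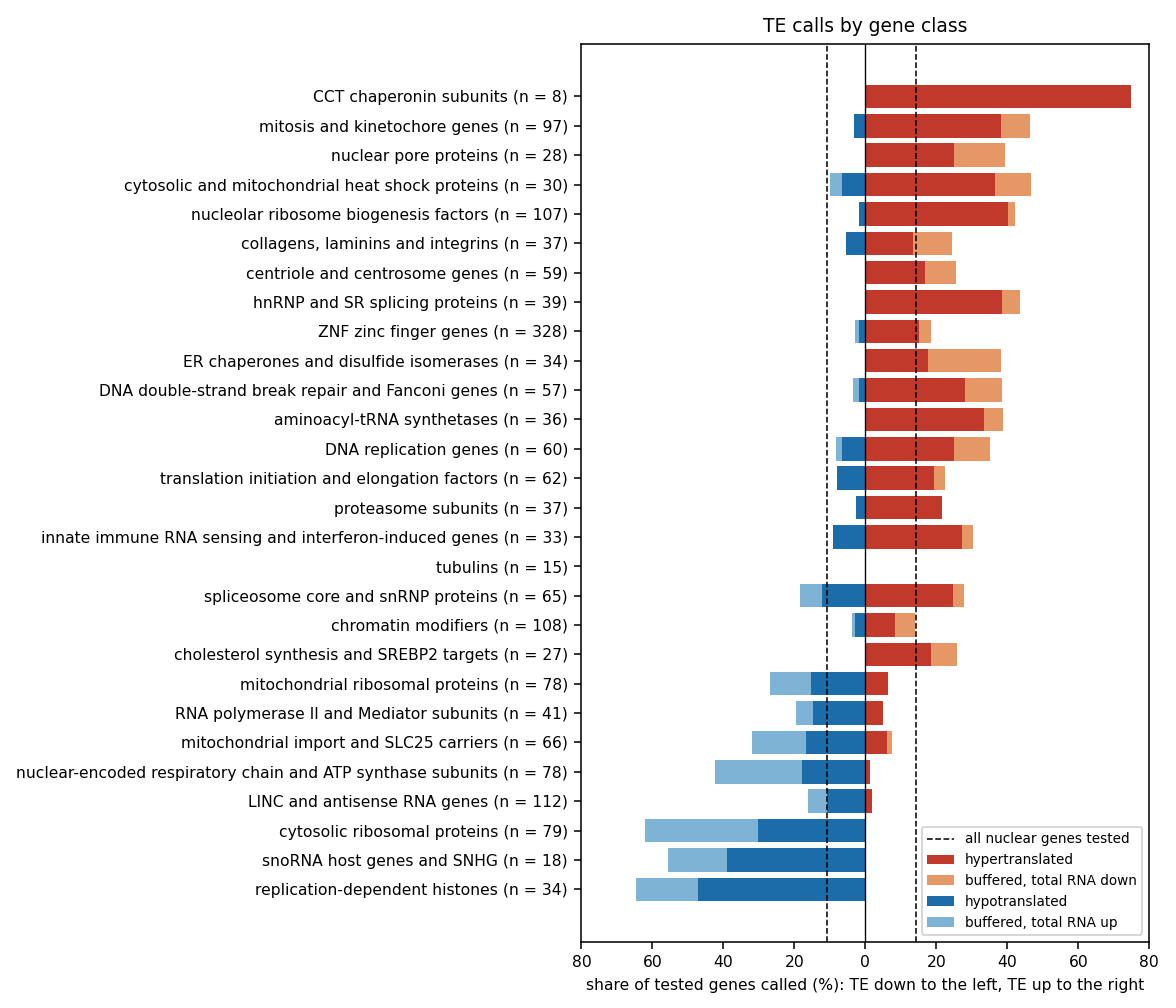
Share of the tested genes of each class called (x axis, percent), TE up to the right and TE down to the left, with hypertranslated or hypotranslated genes in the darker and buffered genes in the lighter colour; dashed lines mark all nuclear genes tested (14.4% up and 10.8% down). Replication-dependent histones, snoRNA host genes and cytosolic ribosomal proteins extend farthest to the left, and the 8 CCT subunits farthest to the right.

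Nuclear genes for mitochondrial proteins were often called down as well. Of 78 tested subunits of the respiratory chain and ATP synthase, 14 were hypotranslated and 19 buffered with total RNA up (42.3% down, beside 10.8% of all nuclear genes). Only 1 was hypertranslated, and the median TE change was -0.48. ATP5F1E, the epsilon subunit of ATP synthase, had 15.9, 24.3, 12.4 and 17.5 CPM in polysome-associated RNA with DMSO and 4.28, 9.98, 12.3 and 13.7 CPM with cercosporamide, so that the groups overlapped narrowly, and in total RNA 76.3, 133, 72 and 70.8 CPM against 91.5, 141, 140 and 120 CPM. Its TE change was -1.40 (standard error 0.281, adjusted p = 0.00241, edgeR). NDUFB1 of complex I was hypotranslated (-1.41) and ATP5MK of ATP synthase was buffered, with a total RNA change of 0.97 and a polysome change of -0.40. The member that rose was NDUFS1, the largest subunit of complex I (0.90, adjusted p = 0.0253, edgeR), a call that was lost without replicate 2. Replicate medians of the class ranged from -1.10 in replicate 1 to -0.01 in replicate 4, and the calls down were 14 without replicate 1 and 18 without replicate 2. The class median was -0.15 with length trends removed and -0.16 with GC and length trends removed.

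Mitochondrial ribosomal proteins, which build the ribosome inside mitochondria, had a smaller median change of -0.18 over 78 genes. Of these, 12 were hypotranslated and 9 buffered with total RNA up (26.9% down, beside 10.8% of all nuclear genes), among them MRPL53 (-1.41) and MRPL52 (-1.40). Another 5 were hypertranslated, among them MRPS9 (1.45). The calls down were 9 both without replicate 1 and without replicate 2, and the replicate 4 median was 0.09. The fitted median moved to -0.013 with length trends removed, to -0.037 without replicate 1 and to -0.41 without replicate 4. Of 66 genes for mitochondrial import and SLC25 carriers, 11 were hypotranslated and 10 buffered with total RNA up (31.8% down, beside 10.8% of all nuclear genes), with a median of -0.40. They included DNAJC19, of the import motor (-1.23), and TIMM8B, a chaperone of the intermembrane space, which had a total RNA change of 0.73 and a polysome change of -0.13, a call lost without replicate 1. In this class 4 genes were hypertranslated and 1 was buffered the other way, and the calls down were 6 without replicate 1 and 10 without replicate 2.

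The factors that assemble ribosomes had TE changes mostly above 0, unlike ribosomal proteins. Of 107 nucleolar ribosome biogenesis factors, 43 were hypertranslated and 2 buffered with total RNA down (42.1%, beside 14.4% of all nuclear genes), whereas 2 were hypotranslated. The median TE change was 0.53, with replicate medians from 0.54 to 0.63. DNTTIP2, a component of the small subunit processome, had 67.6, 24.5, 37.6 and 52.2 CPM in polysome-associated RNA with DMSO and 217, 115, 233 and 378 CPM with cercosporamide, without overlap. Its total RNA overlapped, with 50.6, 61.3, 63.2 and 71 CPM against 63.1, 50.9, 92.2 and 76.6 CPM, and its TE rose by 2.17 (standard error 0.269, adjusted p = 0.000133, edgeR). NOP58, a core protein of box C/D snoRNPs, rose by 1.99, and neither gene lost its call under any alternative that was run. RIOK1, a kinase of late small subunit maturation, was buffered, with a total RNA change of -0.69 and a polysome change of 0.46, a call lost without replicate 1. IMP3 fell by 0.71 on the log2 scale (adjusted p = 0.0714, edgeR), a call that was lost under 7 alternatives, including without replicate 1 or 2 and after removal of the GC trends. Calls up in the class were 30 without replicate 1 and 33 without replicate 2.

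Initiation and elongation factors were called in both directions. Of 62, 12 were hypertranslated and 2 buffered with total RNA down (22.6% up, beside 14.4% of all nuclear genes). Another 5 were hypotranslated (8.06%, beside 10.8% of all nuclear genes called down), and the median was 0.23. EIF2A, an alternative initiator tRNA carrier (1.59, adjusted p = 0.00056, edgeR), and ABCE1, which recycles ribosomes (1.55, adjusted p = 0.00108), rose. EIF5A, which helps ribosomes past stalling sequences, fell, with 236, 248, 129 and 154 CPM in polysome-associated RNA with DMSO and 141, 110, 127 and 60 CPM with cercosporamide. The lowest DMSO value lay within the range of the treated replicates, and the TE change was -1.07 (standard error 0.284, adjusted p = 0.0154, edgeR). EIF3K of the eIF3 complex fell by 0.87 on the log2 scale, a call that was lost after removal of the GC or length trends.

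Of 36 aminoacyl-tRNA synthetases, which load tRNAs with amino acids, 12 were hypertranslated and 2 buffered with total RNA down (38.9%, beside 14.4% of all nuclear genes). None fell. NARS1 rose by 1.49 and TARS1 by 1.28. The median was 0.33, from 0.05 in replicate 3 to 0.69 in replicate 2, and the calls up were 9 without replicate 1 and 7 without replicate 2.

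Chaperones were often called up. All 8 subunits of the CCT chaperonin, which folds actin and tubulin, had a TE change above 0, with a median of 0.84. Of these 6 were hypertranslated (75%, beside 11.4% of all nuclear genes). CCT8 had 319, 189, 334 and 304 CPM in polysome-associated RNA with DMSO and 588, 461, 694 and 888 CPM with cercosporamide, without overlap. Its TE rose by 1.27 (standard error 0.272, adjusted p = 0.00384, edgeR). CCT6A rose by 1.11. The replicate 3 median of the class was 0.14 against 0.91, 1.24 and 1.16 in replicates 1, 2 and 4, and the calls were 2 without replicate 2 and 3 without replicate 4. None of the 15 tubulin genes, whose products are CCT clients, was called (edgeR), and their median was 0.06.

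Of 34 endoplasmic reticulum (ER) chaperones and disulfide isomerases, 6 were hypertranslated and 7 buffered with total RNA down (38.2%, beside 14.4% of all nuclear genes). None fell, and the median was 0.36. HSP90B1, the ER member of the HSP90 family, had 356, 265, 324 and 421 CPM in polysome-associated RNA with DMSO and 840, 781, 757 and 1304 CPM with cercosporamide. Its total RNA was 273, 356, 401 and 347 CPM with DMSO and 232, 239, 255 and 243 CPM with cercosporamide, and the groups were separate in both fractions, in opposite directions. The TE change was 1.91 (standard error 0.253, adjusted p = 0.000133, edgeR). HSPA5, the ER HSP70, rose by 1.65, and DNAJC3, its partner, was buffered, with a total RNA change of -0.75 and a polysome change of 0.44. Calls up in this class were 8 without replicate 2.

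Of 30 cytosolic and mitochondrial heat shock proteins, 11 were hypertranslated and 3 buffered with total RNA down (46.7% up, beside 14.4% of all nuclear genes). Among them were DNAJB4 (2.08) and HSPA13 (1.79), an HSP70 relative that is found at the ER although the list holds it. Another 2 were hypotranslated and 1 was buffered with total RNA up (10% of the list down, beside 10.8%). The median was 0.54, and the calls up were 9 without replicate 2. Of 37 proteasome subunits, 8 were hypertranslated (21.6%, beside 14.4% of all genes called up), among them PSMD12 of the lid and PSMC1, an ATPase of the base (1.27), and PSMA7 of the core was hypotranslated (-0.79), a call lost without replicate 1. The proteasome median was 0.16, with replicate medians of -0.32, 0.45, -0.097 and 0.58, and the calls up were 5 without replicate 2.

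**Figure D3:**
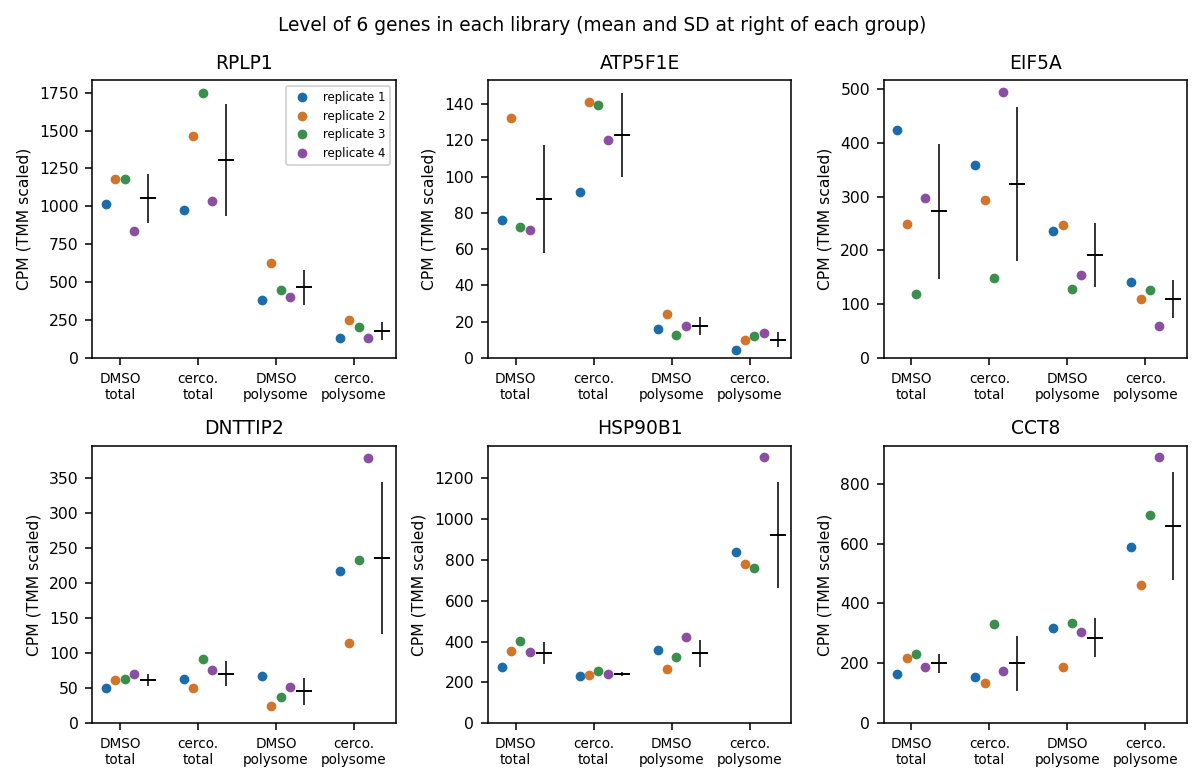
Level of 6 genes in each library (y axis, CPM scaled by TMM, linear and starting at 0), for total and polysome-associated RNA with DMSO and with cercosporamide (cerco.); points are the 4 replicates and the bar at the right of each group is the mean and SD. RPLP1, ATP5F1E and EIF5A are lower on average in polysome-associated RNA with cercosporamide, and DNTTIP2, HSP90B1 and CCT8 are higher in all 4 treated replicates.

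Proteins that bind pre-mRNA were often called up, and snRNP proteins were divided. Of 39 hnRNP and SR splicing proteins, 15 were hypertranslated and 2 buffered with total RNA down (43.6%, beside 14.4% of all nuclear genes). None fell, and the median was 0.46. HNRNPR had 90.6, 52.8, 172 and 120 CPM in polysome-associated RNA with DMSO and 218, 164, 266 and 271 CPM with cercosporamide. Replicate 3 with DMSO lay just above the lowest treated value, and the TE change was 1.75 (standard error 0.247, adjusted p = 0.000216, edgeR). HNRNPH1 rose by 1.26, and HNRNPM was buffered, with a total RNA change of -0.65 and a polysome change of 0.49. Among 65 spliceosome core and snRNP proteins 16 were hypertranslated, such as CDC5L (1.86) and CWC27 (1.78) of the catalytic spliceosome, and 8 were hypotranslated, such as LSM2 (-1.49), a subunit of the ring that binds U6 snRNA. A further 2 and 4 were buffered with total RNA down and up, and the latter included SNRPG, of the Sm ring, with a total RNA change of 0.83 and a polysome change of -0.25. In this list 27.7% were called up and 18.5% down, beside 14.4% and 10.8% of all nuclear genes. The median of 0.04 was close to that of all genes, and the calls down were 6 without replicate 1 and 7 without replicate 2.

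Nuclear pore proteins, which form the channel through the nuclear envelope, had a median of 0.55. Of 28, 7 were hypertranslated and 4 buffered with total RNA down (39.3%, beside 14.4% of all nuclear genes). Among them were NUP107 (1.70) and NUP54 (1.09, lost with the GC trends removed). NUP153 was buffered, with a total RNA change of -0.95 and a polysome change of 0.07, a call lost without replicate 1 or 4. Calls up were 5 without replicate 1, 6 without replicate 2 and 7 without replicate 4. RNA polymerase II and Mediator subunits, the transcription machinery of mRNA genes, had a median of -0.30 over 41 genes. Of these 6 were hypotranslated and 2 buffered with total RNA up (19.5% down, beside 10.8% of all nuclear genes), among them POLR2I (-1.25). Another 2 were hypertranslated (4.88%, beside 14.4% called up). Calls down were 5 without replicate 1. Among 108 chromatin modifiers the median was 0.02, and 9 were hypertranslated and 6 buffered with total RNA down (13.9%, near the 14.4% of all genes). SMARCA1 (1.91) and SMARCA5 (standard error 0.296, adjusted p = 0.00151, edgeR), the ATPases of ISWI remodellers, rose, and the deacetylase HDAC3 fell by 1.03 on the log2 scale. Calls up were 7 without replicate 3.

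Cell division genes were often called up. Of 97 mitosis and kinetochore genes, 37 were hypertranslated and 8 buffered with total RNA down (46.4%, beside 14.4% of all nuclear genes). Another 3 were hypotranslated, and the median was 0.60, with replicate medians of 0.57, 0.88, 0.48 and 0.43. HMMR had 48, 27.2, 14.8 and 49.7 CPM in polysome-associated RNA with DMSO and 107, 79.8, 91.2 and 149 CPM with cercosporamide, without overlap. TTK, a kinase of the spindle checkpoint, rose by 1.98 (adjusted p = 0.000253, edgeR), with a total RNA change of 0.00. BIRC5, the protein survivin (-0.76), and CENPM, of the inner kinetochore (-0.86), were hypotranslated, and both calls were lost without replicate 1, without replicate 2 and after removal of the GC trends.

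Of 59 centriole and centrosome genes 10 were hypertranslated and 5 buffered with total RNA down (25.4%, beside 14.4% of all nuclear genes). None fell. The median was 0.48, with a replicate 4 median of 0.00, and the calls up were 5 without replicate 1 and 6 without replicate 2. Of 60 DNA replication genes 15 were hypertranslated and 6 buffered with total RNA down (35%, beside 14.4% of all nuclear genes), with a median of 0.31. ORC3 of the origin recognition complex rose by 1.66 and the kinase CDC7, which fires origins, by 1.57. POLE4, a small subunit of DNA polymerase epsilon, was among the 4 hypotranslated genes (-1.37), and 1 was buffered with total RNA up. Of 57 genes for double-strand break repair and the Fanconi pathway 16 were hypertranslated and 6 buffered with total RNA down (38.6%, beside 14.4%). Their median was 0.34, with 1 hypotranslated gene and 1 buffered with total RNA up. MRE11, the nuclease that trims broken ends, rose by 1.81 and RAD54B by 1.72. Calls up were 12 and 11 among replication genes and 13 and 16 among repair genes without replicate 1 and without replicate 2.

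Replication-dependent histones, whose mRNAs end in a stem-loop and for the most part carry no poly(A) tail, were mostly called down. Of 34 tested, 16 were hypotranslated and 6 buffered with total RNA up (64.7%, beside 10.8% of all nuclear genes). None rose and 33 had a TE change below 0, with a median of -1.07 and replicate medians of -1.52, -1.02, -0.88 and -1.07. H3C14 had 9.42, 32.5, 21.5 and 19.2 CPM in polysome-associated RNA with DMSO and 2.66, 26.3, 13.1 and 2.61 CPM with cercosporamide. In total RNA it had 4.82, 15.2, 9.07 and 1.13 CPM with DMSO and 9.78, 35.2, 15.3 and 6.67 CPM with cercosporamide. Both pairs of groups overlapped, every replicate went the same way, and the TE change was -2.43 (standard error 0.459, adjusted p = 0.00167, edgeR). H3C15, a near-identical copy, had the same change of -2.43 and is not independent of it. Smart-seq2 primes cDNA at poly(A), and how this bears on histone values was not tested. After removal of both the GC and the length trends the calls were 0 hypotranslated and 2 buffered (edgeR), and the median was -0.32. Without replicate 1 the calls were 14.

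ZNF zinc finger genes, the largest list (328 tested), code mostly for DNA-binding repressors. Of these 50 were hypertranslated and 11 buffered with total RNA down (18.6% up, beside 14.4% of all nuclear genes). Another 6 were hypotranslated and 4 buffered with total RNA up (3.05%, beside 10.8% called down). The median was 0.46, with replicate medians from 0.29 to 0.45. ZNF143 rose by 1.72 and ZNF845 by 1.68, whereas ZNF593 was buffered with a total RNA change of 0.67 and a polysome change of -0.60. Calls up were 31 without replicate 1 and 36 without replicate 2, and calls down were 22 without replicate 3. In that last setting 1377 of all 12282 genes were hypotranslated and 555 buffered with total RNA up.

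**Figure D4:**
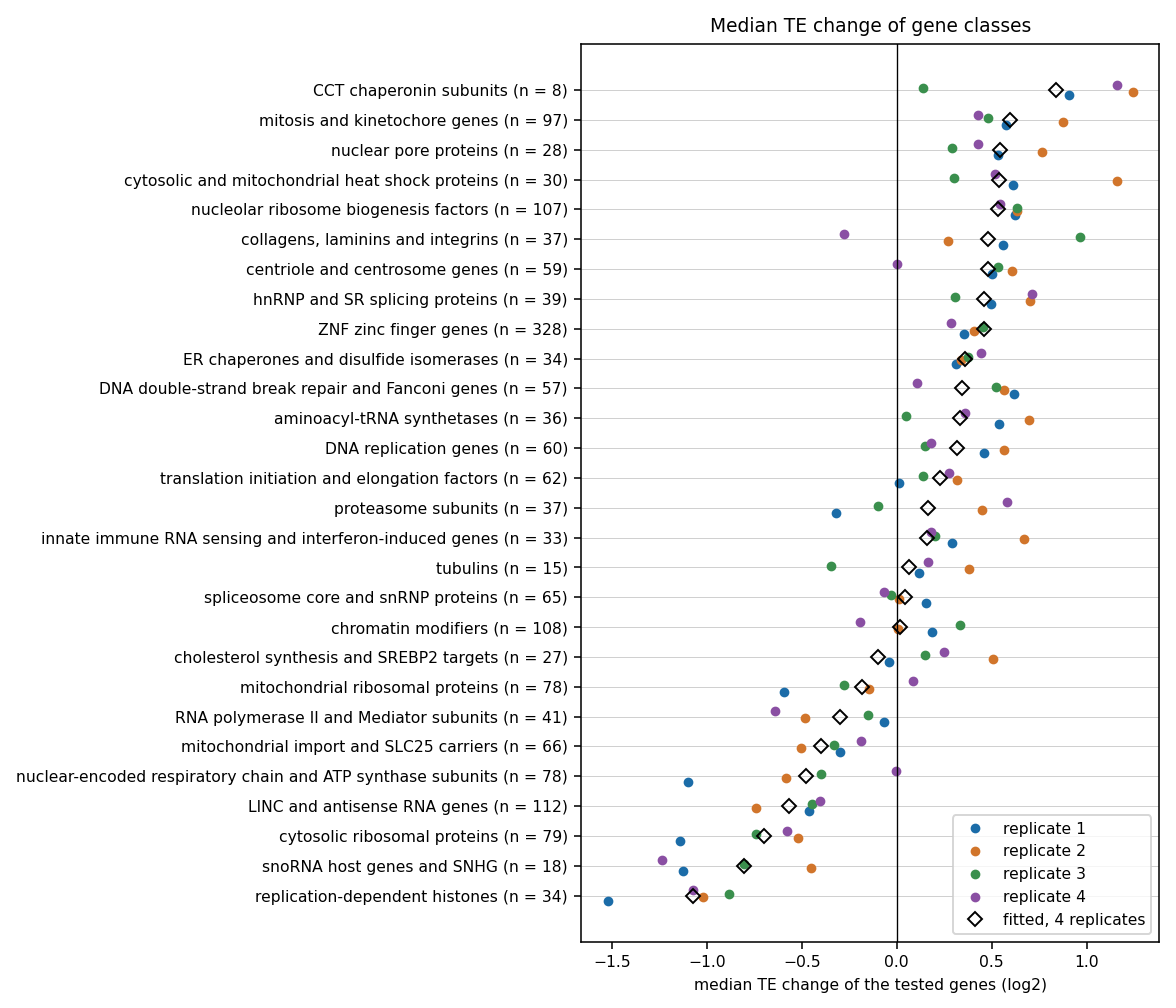
Median TE change of the tested genes of 28 gene classes (x axis, log2, cercosporamide against DMSO); circles are the 4 replicates and diamonds the medians of the fitted changes. Classes that lie below 0 in all 4 replicates include replication-dependent histones, snoRNA host genes, cytosolic ribosomal proteins and LINC and antisense RNA genes. Those above 0 in all 4 include nucleolar factors, ZNF genes and ER chaperones, and several other classes also keep their side of 0.

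Among membrane and matrix genes, 37 collagens, laminins and integrins had a median of 0.48, but replicate medians ran from -0.28 in replicate 4 to 0.96 in replicate 3. Of these 5 were hypertranslated and 4 buffered with total RNA down (24.3%, beside 14.4% of all nuclear genes), and 2 were hypotranslated (5.41%, beside 10.8% called down). ITGAV, an integrin alpha chain, had 62.7, 64.5, 45.9 and 58.1 CPM in polysome-associated RNA with DMSO and 126, 123.3, 173 and 169 CPM with cercosporamide, without overlap. Its TE rose by 1.73 (standard error 0.253, adjusted p = 0.000282, edgeR). Its partner ITGB1 rose by 1.41, and ITGAE fell by 1.22 on the log2 scale. Calls up in the class were 3 without replicate 1 and 5 without replicate 2.

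Cholesterol synthesis genes had a median of -0.10 over 27 genes. Of these 5 were hypertranslated and 2 buffered with total RNA down (25.9% up, beside 14.4% of all nuclear genes), and none fell. MSMO1, a sterol demethylase of the pathway, rose by 1.42. The median turned to 0.18 in the analysis of partial variance, an alternative test of TE, and to 0.089 with GC trends removed. Calls up were 4 without replicate 1, 3 without replicate 2 and 4 without replicate 4, and 3 genes were called down without replicate 3. Of 33 genes for RNA sensing and the interferon response, 9 were hypertranslated and 1 buffered with total RNA down (30.3% up, beside 14.4% of all nuclear genes). Another 3 were hypotranslated (9.09%, beside 10.8% called down), and the median was 0.16. DDX58, the sensor RIG-I, rose by 1.61 and the kinase TBK1 rose too (adjusted p = 0.0031, edgeR). Calls up were 6, 5, 9 and 6 without replicates 1, 2, 3 and 4.

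The other lists are given beside 14.4% up and 10.8% down of all nuclear genes. TE rose for 18 (22.8%) and fell for 6 (7.59%) of 79 ubiquitin-specific proteases, cullins and related genes (CUL2 1.75, USP15 1.64, UBE2S -1.58). It rose for 10 (11.5%) and fell for 10 (11.5%) of 87 RNF and TRIM ligases. It rose for 12 (20.3%) and fell for 3 (5.08%) of 59 lysosome and vacuolar ATPase genes. Counts up and down were 9 (26.5%) and 6 (17.6%) of 34 subunits of ER translocation, signal peptidase and glycosylation complexes (SRP54 1.58). They were 12 (20.3%) and 3 (5.08%) of 59 COPI, COPII and Golgi tether genes (COPB1 1.27). Among 139 solute carriers outside mitochondria they were 18 (12.9%) and 5 (3.6%), with SLC39A10 at 1.41 and SLC16A1 at 1.27. The counts were 3 (13%) and 1 (4.35%) of 23 glycolytic genes and 7 (17.9%) and 3 (7.69%) of 39 cilium transport genes. They were 2 (11.1%) and 3 (16.7%) of 18 RNA polymerase I and III subunits, and 2 (4.88%) and 4 (9.76%) of 41 RAB GTPases. They were 3 (13.6%) and 2 (9.09%) of 22 cyclins, CDKs and inhibitors of the G1/S step, where RB1 rose by 1.27 and CDK4 was buffered (-0.74). They were 2 (8.33%) and 1 (4.17%) of 24 genes of the integrated stress response, where SLC3A2 rose by 1.16 and ATF4 fell by 0.66. Among 15 keratins and other filaments they were 1 (6.67%) and 2 (13.3%), and KRT7 was buffered (-0.93). Of 26 RAS, RAF, MEK, ERK and MNK genes 1 rose (3.85%) and 3 fell (11.5%), and the gene that rose was SHOC2 (1.19), a RAS-binding scaffold. Of 11 chemokines and interleukins 1 rose (9.09%) and 2 fell (18.2%). The 1 was CXCL8, the neutrophil attractant interleukin-8, whose total RNA changed by 2.90 and polysome-associated RNA by 4.31, with a TE change of 1.21 (adjusted p = 0.067, edgeR) that lost its call without replicate 1, 2 or 3. The calls of CDK4, ATF4 and KRT7 were lost without replicate 1 as well, and those of SHOC2 and RB1 with the GC trends removed. Small counts moved with single replicates, as the COPI, COPII and Golgi tether list did from 12 up to 6 without replicate 1 or 2. Without replicate 3 the solute carriers had 16 calls down and 18 up. Over all 12282 genes then tested 1377 were hypotranslated and 555 buffered with total RNA up. Of the cell type markers 1 of 7 duct and epithelial genes fell (KRT7), 1 of 4 mesenchymal genes rose, and neither of the 2 immune, endothelial and fibroblast genes was called.

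Transcripts that code for no protein had TE changes mostly below 0. Of 18 genes that host snoRNAs in their introns, 7 were hypotranslated and 3 buffered with total RNA up (55.6%, beside 10.8% of all nuclear genes). All 18 had a TE change below 0, and the median was -0.81. SNHG29 had 20.8, 25.8, 22.2 and 23.8 CPM in polysome-associated RNA with DMSO and 10.3, 16.3, 13.4 and 8.48 CPM with cercosporamide, without overlap. It had 93, 117, 66.2 and 58.4 CPM in total RNA with DMSO and 129, 112, 122 and 88.4 CPM with cercosporamide, and its TE change was -1.39 (standard error 0.285, adjusted p = 0.0029, edgeR). SNHG5 fell by 1.25 on the log2 scale, and SNHG8 was buffered, with a total RNA change of 0.55 and a polysome change of -0.36, a call lost without replicate 1. Of 112 LINC and antisense RNA genes 12 were hypotranslated and 6 buffered with total RNA up (16.1% down, beside 10.8% of all nuclear genes). Another 2 were hypertranslated (1.79%, beside 14.4% called up), and the median was -0.57. Calls down in this list were 4 without replicate 1, 6 without replicate 2 and 27 without replicate 3. Reads were counted without regard to strand, so reads counted for an antisense gene may come from the other strand. Over the 10254 protein-coding genes in RefSeq the median was 0.04, over 271 long non-coding RNAs -0.55 and over 1512 pseudogenes -0.17.

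The genes of the cap-binding complex and its kinases were measured as well. EIF4E (chromosome 4, 98879276 to 98929133, GRCh38, minus strand) had 91.3, 82.8, 62.8 and 50.3 CPM in polysome-associated RNA with DMSO and 140, 109, 213 and 200 CPM with cercosporamide. In total RNA it had 108, 120, 89.6 and 84.8 CPM with DMSO and 130, 86.6, 162 and 121 CPM with cercosporamide. The groups did not overlap in polysome-associated RNA, and its TE rose by 0.90 (standard error 0.255, adjusted p = 0.0227, edgeR), but this call did not survive removal of the GC trends (adjusted p = 0.669). MKNK2, which encodes MNK2, had 6.06, 8.92, 11.1 and 6.44 CPM in polysome-associated RNA with DMSO and 5.16, 4.43, 5.18 and 1.96 CPM with cercosporamide, without overlap. In total RNA it had 2.36, 2.81, 9.49 and 6.17 CPM with DMSO and 4.32, 8.66, 2.92 and 7.35 CPM with cercosporamide. TE fell by 1.202 on the log2 scale (standard error 0.516, edgeR adjusted p = 0.125), with the opposite sign in replicate 3, at 0.57, and the call was lost without replicate 1, 2 or 4. EIF4G1 (-0.35, standard error 0.258, adjusted p = 0.4) and MKNK1 (-0.39, standard error 0.311, adjusted p = 0.434, edgeR) did not pass. EIF4A1 is listed at 0 in all 24 libraries of the series, although every cell uses it, and could not be tested.

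Among genes whose mean log2 CPM was 3 or more and whose 4 replicates shared a sign, those buffered with the largest TE change were H3C14, H3C15 and SNAR-A2 with total RNA up and DNAJB4, GCC2 and HTATSF1 with total RNA down. In each of them polysome-associated RNA changed in the opposite direction to total RNA. The polysome change passed an adjusted p of 0.15 (0.0191 to 0.145, edgeR), and the total RNA change did not (0.167 to 0.273). They are thus not buffered in the study's sense. HTATSF1, a splicing and elongation factor, had 22.6, 21.8, 38.5 and 41.1 CPM in total RNA with DMSO and 13.8, 11, 17.5 and 19 CPM with cercosporamide, and these groups were separate. In polysome-associated RNA it had 28.8, 20.1, 28 and 44.6 CPM with DMSO and 60.2, 36.7, 38.3 and 92.6 CPM with cercosporamide. The changes were -0.99 in total RNA and 0.86 in polysome-associated RNA, in opposite directions, and the TE change was 1.84 (standard error 0.282, adjusted p = 0.000363, edgeR). In GCC2, a Golgi tether, they were -1.04 and 0.81.

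Features that the choice of classes did not use went along with the calls. The median GC content of the canonical transcript was 39.6% in hypertranslated genes, 53.5% in hypotranslated genes and 47.5% in all nuclear genes. It was 41.9% in genes buffered with total RNA down and 52.9% in those buffered with total RNA up. Median transcript lengths were 3628, 1559 and 2923 nucleotides for hypertranslated, hypotranslated and all genes, and 4610 and 1084 nucleotides for genes buffered with total RNA down and up. In the decile of genes with the lowest GC 40.8% were hypertranslated and 0.934% hypotranslated, and in the decile with the highest GC 0.51% and 9.18%. Across 11765 genes, which share their libraries and are not independent, Spearman's rho between TE change and GC was -0.52. In single replicates it was -0.33, -0.61, -0.14 and -0.38, and the median TE change of the highest decile was 0.54 in replicate 3 against -0.27, -1.01 and -0.92 in replicates 1, 2 and 4. Whether GC content is a feature of translation here or of the libraries was not tested.

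**Figure D5:**
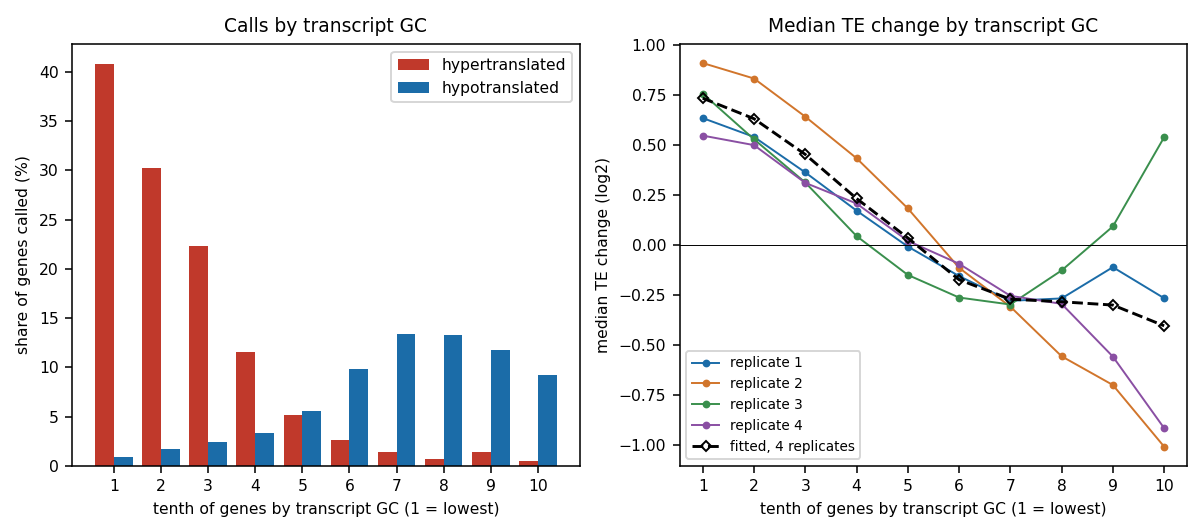
Left, share of genes called hypertranslated or hypotranslated (y axis, percent) in deciles of genes by transcript GC content, from the lowest (1) to the highest (10). Right, median TE change (y axis, log2) in the same deciles, for each replicate and for the fit; replicate 3 turns upward in the 3 highest deciles and reaches 0.54 in the last.

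After the trends of counts with GC were removed from each library, 858 genes were hypertranslated, 593 hypotranslated, 357 buffered with total RNA up and 293 with total RNA down, and 1505 of the 3068 TE calls remained. The 2101 calls of this setting include genes not called before. Over all 12154 nuclear genes 1151 were called up, against 1756 before, and 950 down, against 1312. Class counts moved unequally. Cytosolic ribosomal proteins had 42 calls down among 79 genes, against 49 before, and the respiratory chain 27 among 78, against 33. Nucleolar factors had 40 calls up among 107, against 45, aminoacyl-tRNA synthetases 15 among 36, against 14, and CCT subunits 5 among 8, against 6. The hnRNP and SR proteins had 8 calls up among 39, against 17, and nuclear pore proteins 5 among 28, against 11. Centriole genes had 4 among 59, against 15, ZNF genes 31 among 328, against 61, and double-strand break repair genes 11 among 57, against 22. Histones had 14 calls down among 34, against 22. With the length trend removed as well, ribosomal proteins had 35 calls down, the respiratory chain 20, histones 2 and all nuclear genes 851.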

How the data were processed

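Total cytosolic and polysome-associated RNA of 16 libraries (2 treatments, 4 replicates) were compared. As described by the authors, ribosomal and adapter sequence was removed with BBDuk, reads were aligned to hg38 with HISAT2, and featureCounts gave the deposited counts per RefSeq gene, whole numbers that are not normalized. Both tools were run at their default settings, under which RSubread's featureCounts counts a multi-mapped read at each alignment and ignores strand. The submitters' processing notes also name bcl2fastq 2.20.0.422 and FastQC 0.11.8.

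Genes with no count of 0 in the 16 libraries were kept. In R 4.3.3, edgeR 4.0.16 with TMM scaling fitted a plate term for each of the 8 plates, a polysome term for each replicate and 1 TE term, and p-values were adjusted over all 12196 genes tested. Changes in total and polysome-associated RNA came from separate fits with the replicate as a block. CPM values are TMM scaled. Alternatives used limma 3.58.1 and DESeq2 1.42.0. The script was tested on simulated data. Genes were named by a fixed rule (largest called TE changes of the same sign in 4 of 4 replicates and an average log2 CPM of at least 3, overall and per list, plus the genes of the cap-binding complex and the MNK kinases). The members and lists were chosen with earlier results of these data known. The labels call the samples replicates, and p-values measure the spread between these plates. No pair of libraries agreed within sampling noise. Transcript GC content and length came from the Ensembl canonical transcript of each gene in GENCODE (GRCh38). There 39020 symbols matched directly and 308 by a synonym or older symbol. Start sequences and gene types came from RefSeq (GRCh38.p14 for the sequences). The labels give RPMI 1640 and the study's methods DMEM as culture medium. The 8 libraries of another compound entered only the fit on all 24 libraries and the analysis of partial variance. Some items are not reported here.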

Additional observations from a re-analysis of the deposited data

Results flagged for a closer look

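In a group of 4 replicates a value was singled out where its gap to the nearest other value, relative to the group's range, passed Dixon's 95% limit, which chance gives in about 1 in 20 groups. Of 4 groups of libraries 1 passed: the polysome library of replicate 4 with cercosporamide held 1592459 reads on genes, against 10661874 to 11660094 in the other 3. Of 28 gene classes 1 passed: the nucleolar ribosome biogenesis factors, whose median TE change was 0.54 in replicate 4 and 0.63 in each of the others. Of 106 genes examined by the naming rule 3 passed. MTM1 had a TE change of 4.96 in replicate 2, against 1.68 to 1.88 in the others. CXCL8 had 1.203 in replicate 3, against 0.62 to 0.66, and SHOC2 had 2.41 in replicate 4, against 0.77 to 0.88.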

How the results depend on the processing

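Of the named genes' values under 18 alternatives, 1775 kept their direction and side of the threshold, 131 lost the call, 1 gained it, and the TE change of CXCL8 turned to -0.076 in the analysis of partial variance (adjusted p = 0.952). Without the replicate block but with plate terms 1350, 862 and 459 genes were hypertranslated, hypotranslated and buffered up, and without plate terms too 499, 211 and 45, with 77 buffered down. Same-numbered libraries deviated together with r above 0.1 in 6 of 8 pairs (-0.02 to 0.41), and the block follows the study's model, which takes the replicate as a batch. At an adjusted p below 0.05 the counts were 863, 438, 178 and 136. With GC trends removed 858 genes were hypertranslated, and with GC and length trends removed 829, with 256 buffered up. Buffered up were 273 without a filter, 264 with length trends removed and 0 in the analysis of partial variance, where buffered down was also 0, and 1 and 0 where total RNA itself had to be called, a rule chosen after seeing the data. Leaving out 1 replicate gave 820 to 1046, 391 to 1377, 190 to 555 and 174 to 447. Total RNA calls, up and down, were 0 and 0 without the block, 1 and 0 with TMM within fractions or filterByExpr, 216 and 91 without a filter, 0 and 0 at 0.05, 440 and 148 without GC trends, 339 and 126 without GC and length trends, 1 up without length trends, and 0 to 534 and 0 to 111 with 1 replicate left out. Polysome calls, up and down, were 1075 and 460 without the block, 949 and 314 at 0.05, 1056 up without a filter, 695 down without GC trends, and 784 to 1304 and 401 to 1308 with 1 replicate left out. No filter moved the median of all genes by -0.16, and leaving out replicate 3 moved it by -0.12. Of TE calls 57.2% were up, 69.2% without block and plate terms and 43.6% without replicate 3. Class medians moved by more than the spread of their replicates in 50 cases, against 426 in which they did not. In the analysis of partial variance they were -0.33 for cytosolic ribosomal proteins, -0.22 for mitochondrial import, 0.24 for nuclear pore, 0.34 for mitosis, 0.10 for centriole, 0.20 for ZNF, 0.21 for ER chaperone, 0.18 for cholesterol synthesis and -0.35 for LINC and antisense genes. With GC trends removed they were 0.25 for hnRNP and SR, 0.18 for spliceosome, 0.31 for nuclear pore, -0.68 for histone, 0.20 for ZNF, 0.29 for ER chaperone and 0.42 for innate immune genes. With length trends removed they were 0.46 for nucleolar, -0.077 for spliceosome, -0.57 for histone, 0.33 for ZNF, 0.21 for ER chaperone and -0.39 for LINC genes. With both removed they were 0.081 for initiation factor, 0.47 for nucleolar, 0.17 for hnRNP and SR, 0.27 for nuclear pore, 0.36 for mitosis, 0.17 for centriole, -0.32 for histone, 0.14 for ZNF, 0.24 for ER chaperone and -0.38 for LINC genes. With DESeq2 and with its size factors nucleolar genes had 0.47 and 0.47 and ER chaperones 0.29 and 0.29. ZNF and LINC genes had 0.35 and -0.76 with filterByExpr, and ZNF and nucleolar genes 0.33 and 0.48 without a filter. Leaving out 1 replicate gave -0.55 to -0.37 for mitochondrial import, 0.084 to 0.25 for initiation factors, 0.48 to 0.54 for nucleolar, 0.33 to 0.48 for ZNF, 0.20 to 0.39 for ER chaperone and -0.73 to -0.49 for LINC genes. The cause of these shifts was not tested.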

Other observations

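Of 8 tested snoRNA genes, whose RNAs guide the modification of ribosomal RNA, 4 were hypotranslated (50%, beside 7.3% of all nuclear genes). Another 1 was hypertranslated (12.5%, beside 11.4%), and the median TE change was -1.44. Of 1512 tested pseudogenes 140 were hypotranslated and 80 buffered with total RNA up (14.6% down, beside 10.8% of all nuclear genes). Another 90 were hypertranslated and 14 buffered with total RNA down (6.88% up, beside 14.4%). Reads of pseudogenes can come from their parent genes.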
